A study of Mus musculus with 12 samples.

Results

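The 9 genes described here, Bcl2, Bcl2l1, Bcl2l11, Mcl1, Bcl2a1b, Bak1, Bid, Bad and Casp8, code for proteins that set the threshold of apoptosis, and they were taken by gene name from a deposited table of read counts for 21834 genes. All 9 were found and all 9 passed the filter on low counts. The RNA came from BV2, an immortalized mouse microglial cell line, which stably carried an shRNA that was either a control (shCtrl) or directed at Anxa2 (shAnxa2), a calcium-dependent membrane-binding annexin. Each line was left untreated (CTRL) or put through oxygen-glucose deprivation and reoxygenation (OGD/R, OGDR in group names), a culture model of ischemia and reperfusion, with 3 libraries in each of the groups shCtrl-CTRL, shCtrl-OGDR, shAnxa2-CTRL and shAnxa2-OGDR. By the sample labels, deprivation lasted 4 h and reoxygenation 12 h, whereas the study's methods give a longer reoxygenation. All 12 libraries came from cells with a stably integrated lentiviral shRNA vector, selected with puromycin, and each line stands for 1 shRNA, so the shRNA and the selected line cannot be told apart. The comparisons ask how OGD/R moved these mRNAs in each line, how the lines differed before and after it, and whether the OGD/R change differed between the lines.

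The libraries held 19521877 to 27288843 counts. Anxa2 lay between 164.5 and 176.7 CPM (counts scaled to a library of 1000000) in shCtrl-CTRL, between 250.9 and 294.6 CPM in shCtrl-OGDR, between 34.97 and 44.4 CPM in shAnxa2-CTRL, and between 18.2 and 20.6 CPM in shAnxa2-OGDR, which fits the line label of all 12 libraries. No gene was tested as a check of the OGD/R label, which was taken from the titles. Anxa2 itself rose with OGD/R in shCtrl (log2 fold change 0.70) and fell with it in shAnxa2 (-1.04). The hypoxia-inducible gene Bnip3, described below, also rose in shCtrl (1.68) and fell in shAnxa2 (-2.19). A second label of the samples assigns the genotype differently from the titles used for grouping. Each OGD/R direction in shAnxa2, each comparison of the lines within a condition and each interaction given below rests on those titles. The 11 microglia and macrophage markers summed to between 1645 and 2063 CPM in every library, lowest in shAnxa2-CTRL (1645 to 1742 CPM) and highest in shCtrl-CTRL (1938 to 2063 CPM). Csf1r was at 387.9 to 589.8 CPM. The lowest value of Cd68, Ptprc, Spi1, Trem2 and Tyrobp was 117.5 CPM, for Tyrobp in shAnxa2-CTRL. The other markers were low, with Itgam at 8.295 to 19.55 CPM, Aif1 at 1.99 to 6.20 CPM, Cx3cr1 at 2.67 to 6.35 CPM and P2ry12 at 1.35 to 2.66 CPM. Tmem119 was at 4.80 to 4.85 CPM in shCtrl-CTRL and 1.41 to 2.36 CPM in shCtrl-OGDR. In shAnxa2-CTRL it was at 5.20 to 5.88 CPM and in shAnxa2-OGDR at 9.80 to 10.69 CPM. The markers of neurons, astrocytes and fibroblasts each summed to less than 1 CPM in every library. Snap25, Syt1, Aqp4 and Mog had no count in any library. The oligodendrocyte list summed to 4.08 to 6.61 CPM, mostly from Mbp. In RNA from a whole culture, a lower level in every cell and a smaller number of cells with the mRNA cannot be told apart, and no protein was measured in these data.

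Proteins of the BCL2 family decide whether the outer membrane of the mitochondrion stays closed. The survival members Mcl1, Bcl2l1 (Bcl-xL), Bcl2 and Bcl2a1b (a mouse A1 protein) bind and hold back the pore-forming effectors Bak1 and Bax, and the BH3-only members Bid, Bcl2l11 (Bim) and Bad insert their BH3 helix into the groove of the survival proteins, with Bid and Bcl2l11 also able to engage the effectors directly. Casp8 is the initiator caspase of the death receptors, cleaves Bid to its active form, and restrains necroptosis. In microglia the same proteins bear on survival under hypoxia and inflammatory signals.

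The BH3 segment is the feature that joins the family, so the part of each coding sequence that encodes it is shown. A search of the translated GENCODE M21 transcripts (GRCm38) for a leucine, 3 residues of any kind, a glycine, an aspartate and an acidic residue or glycine, or with serine or leucine in place of the first glycine where that gave nothing, found 1 match in each of 8 members and 0 in Casp8. The stretches of 39 coding bases below lie each within a single exon, and the capitals mark the leucine codon and the aspartate codon 5 residues further on. The residue before the aspartate was glycine in 6 of the 8, serine in Bad and leucine in Bcl2a1b.
Mcl1 (chr3:95659427-95659465, plus strand): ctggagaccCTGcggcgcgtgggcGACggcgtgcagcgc
Bcl2l1 (chr2:152829694-152829732, minus strand): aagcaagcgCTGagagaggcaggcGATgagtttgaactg
Bcl2 (chr1:106712572-106712610, minus strand): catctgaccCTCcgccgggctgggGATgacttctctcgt
Bcl2a1b (chr9:89199504-89199542, plus strand): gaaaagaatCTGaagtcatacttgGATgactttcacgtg
Bak1 (chr17:27022528-27022566, minus strand): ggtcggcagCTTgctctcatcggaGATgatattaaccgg
Bid (chr6:120897286-120897324, minus strand): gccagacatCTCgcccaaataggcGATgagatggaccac
Bcl2l11 (chr2:128147141-128147179, plus strand): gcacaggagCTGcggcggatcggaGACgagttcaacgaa
Bad (chr19:6950783-6950821, plus strand): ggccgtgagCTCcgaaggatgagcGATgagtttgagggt

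In the deposited coordinates, which the processing notes place on mm39, Mcl1 lies at chr3:95566099-95570487 on the plus strand, Bcl2l1 lies at chr2:152622588-152673648 on the minus strand and Bcl2 lies at chr1:106465908-106642004 on the minus strand. Bcl2a1b lies at chr9:89081262-89089880 on the plus strand, Bak1 lies at chr17:27238784-27247983 on the minus strand and Bid lies at chr6:120868891-120893814 on the minus strand. Bcl2l11 lies at chr2:127967958-128004467 on the plus strand, Bad lies at chr19:6919229-6929267 on the plus strand and Casp8 lies at chr1:58834533-58886662 on the plus strand.

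Per length, Mcl1 and Bak1 stood far above the rest of the genes. In shCtrl-CTRL, the levels in CPM per kb of annotated exon were 108 ± 4.41 (SD, n = 3) for Bak1, 87.1 ± 2.34 for Mcl1 and 36.6 ± 1.11 for Bid. They were 28.1 ± 1.65 for Casp8 and 27.1 ± 1.06 for Bcl2l1, which did not differ beyond their spread, and 14.5 ± 0.474 for Bad. Bcl2l11 was at 9.21 ± 0.357, Bcl2a1b at 5.10 ± 0.263 and Bcl2 at 1.60 ± 0.0884 CPM per kb. The order of the first 2 turned in shCtrl-OGDR, where Mcl1 was at 143 ± 8.74 and Bak1 at 92.4 ± 4.32 CPM per kb. It also turned in shAnxa2-CTRL, with Mcl1 at 143 ± 6.16 and Bak1 at 104 ± 6.20 CPM per kb, and not in shAnxa2-OGDR, with Mcl1 at 97.0 ± 5.16 and Bak1 at 120 ± 1.54 CPM per kb. These levels use the union of annotated exons, 9157 bases for Bcl2 and 817 bases for Bcl2a1b, and a gene whose cells use a shorter transcript is understated.

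Among the survival genes, Mcl1, Bcl2a1b and Bcl2 rose with OGD/R in shCtrl cells and fell with OGD/R in shAnxa2 cells. Mcl1, a short-lived protein that binds Bak1 and Bcl2l11, was measured at 298, 306 and 290 CPM in shCtrl-CTRL, at 455, 506 and 507 CPM in shCtrl-OGDR, at 503, 502 and 466 CPM in shAnxa2-CTRL, and at 318, 351 and 325 CPM in shAnxa2-OGDR. The highest libraries were those of shCtrl-OGDR and shAnxa2-CTRL, whose ranges overlapped, and all 6 lay above the other 6 libraries. OGD/R raised Mcl1 in shCtrl by 0.72 on the log2 scale (SE 0.0534, edgeR adjusted p = 3.12e-11). In shAnxa2 it fell by 0.56 (SE 0.0534, adjusted p = 4.95e-09). Read across the lines, Mcl1 was higher in shAnxa2 by 0.72 without OGD/R (SE 0.0534, adjusted p = 4.65e-11) and lower by a log2 fold change of -0.56 after it (SE 0.0534, adjusted p = 1.61e-09).

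Bcl2a1b, which binds BH3-only proteins and is an NF-κB-responsive gene of myeloid cells, had 105, 108 and 113 counts in shCtrl-CTRL, 218, 181 and 152 counts in shCtrl-OGDR, 143, 186 and 178 counts in shAnxa2-CTRL, and 91, 140 and 101 counts in shAnxa2-OGDR. The group means were 4.17 ± 0.214, 7.74 ± 0.81, 7.67 ± 1.11 and 5.04 ± 0.475 CPM in that order (SD, n = 3). It had the fewest counts of the 9 genes and the widest errors. The shCtrl-OGDR and shAnxa2-CTRL libraries overlapped each other and lay above those of the other groups. The log2 fold change with OGD/R was 0.89 in shCtrl (SE 0.136, adjusted p = 3.6e-06). In shAnxa2 it was -0.60 (SE 0.137, adjusted p = 0.000695). The shAnxa2 line was higher than shCtrl by 0.88 without OGD/R (SE 0.137, adjusted p = 6.51e-06), and its log2 fold change against shCtrl after OGD/R was -0.61 (SE 0.136, adjusted p = 0.000332).

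Bcl2, the founding survival member, was at 15.1, 15.03 and 13.7 CPM in shCtrl-CTRL, at 19.3, 19.2 and 19.7 CPM in shCtrl-OGDR, at 25.3, 25.6 and 25.6 CPM in shAnxa2-CTRL, and at 19.5, 20.5 and 21.6 CPM in shAnxa2-OGDR. All libraries of shAnxa2-CTRL lay above all others, and those of both OGDR groups overlapped. With OGD/R, Bcl2 rose in shCtrl by 0.41 on the log2 scale (SE 0.0768, adjusted p = 5.84e-05). In shAnxa2 it fell by 0.31 (SE 0.0742, adjusted p = 0.00102). The untreated shAnxa2 line was higher by 0.81 (SE 0.0755, adjusted p = 2.56e-09). After OGD/R the lines differed by 0.08 (95% interval -0.0635 to 0.233, adjusted p = 0.328), which did not pass the test.

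Bcl2l1, whose protein holds Bak1 and Bax inactive, moved the other way in shCtrl. It was at 120, 124 and 129 CPM in shCtrl-CTRL, at 89.6, 99.9 and 95.3 CPM in shCtrl-OGDR, at 131, 124 and 125 CPM in shAnxa2-CTRL, and at 127, 112 and 118 CPM in shAnxa2-OGDR. The libraries of shCtrl-OGDR lay below all others, and the other groups overlapped. Bcl2l1 fell with OGD/R in shCtrl by 0.39 on the log2 scale (SE 0.0531, adjusted p = 7.1e-07). The change in shAnxa2 was -0.09 (SE 0.053, adjusted p = 0.15), a value that passed the threshold without shAnxa2-OGDR replicate 1 (-0.14, adjusted p = 0.0495) or with upper quartile scaling (-0.14, adjusted p = 0.031). After OGD/R it was higher in shAnxa2 than in shCtrl by 0.32 (SE 0.0536, adjusted p = 1.02e-05), and without OGD/R the difference of 0.02 did not pass (adjusted p = 0.723).

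**Figure D1:**
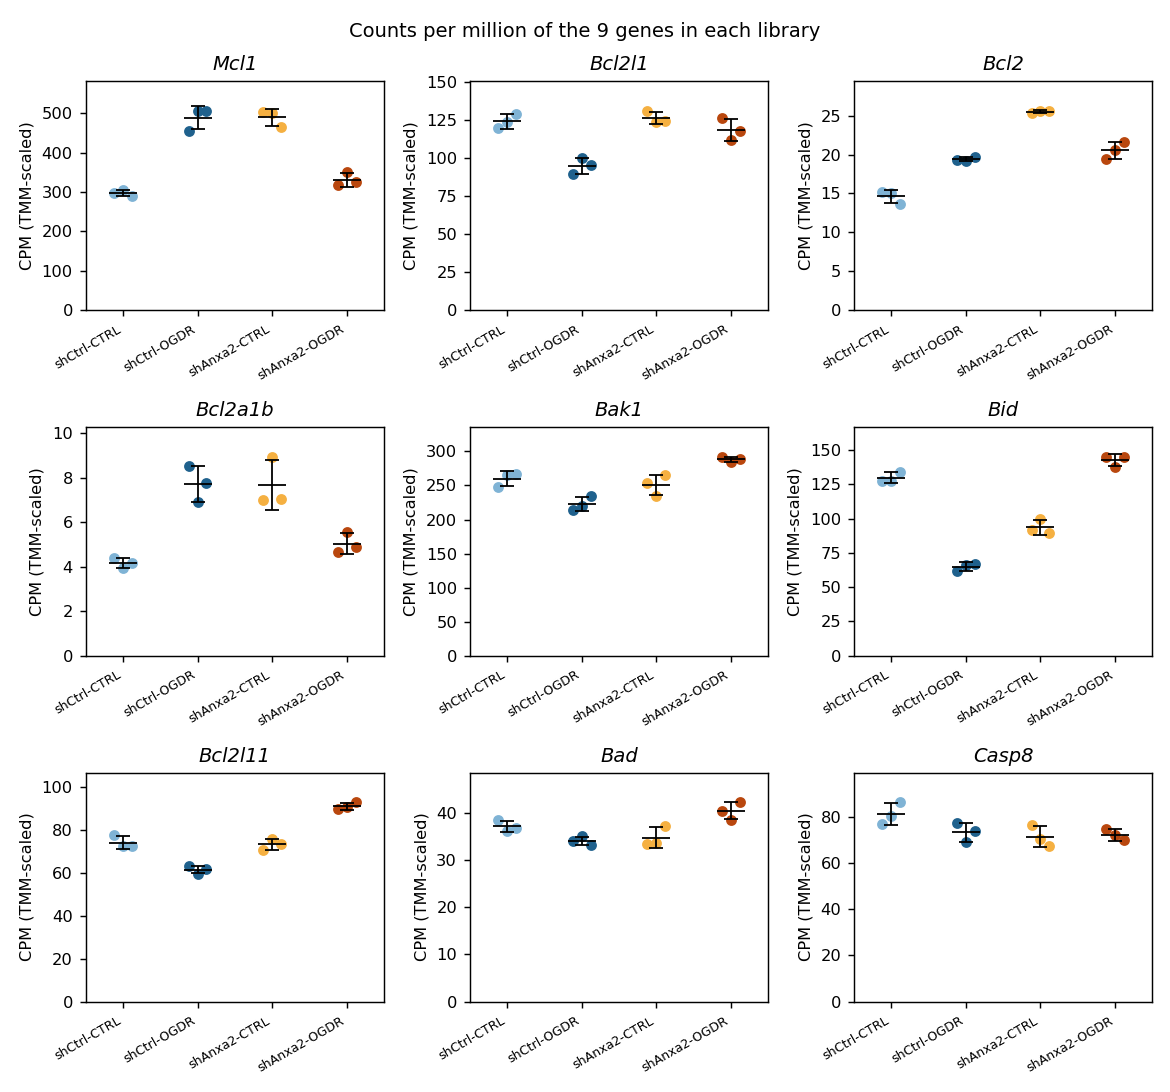
Levels of each of the 9 genes (vertical axes from 0, CPM with TMM scaling) in the 4 groups (horizontal axes). Each point is 1 library, the long dash is the mean and the error bar 1 SD (n = 3). Mcl1 and Bcl2a1b are high in shCtrl-OGDR and shAnxa2-CTRL, Bid is lowest in shCtrl-OGDR (61.6 to 67.2 CPM), and the Casp8 groups lie close together.

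Of the 4 effector and BH3-only members, Bid, Bcl2l11 and Bak1 fell with OGD/R in shCtrl, and all 4 rose with it in shAnxa2. Among all genes tested, 31.0% were called lower in shCtrl and 28.2% higher in shAnxa2. The BH3-only genes Bbc3, Bmf and Bik, which are not members, moved the other way in both lines, and Pmaip1 was not called. Bid, which carries the death receptor signal to the mitochondrion once Casp8 has cut it, was at 128, 127 and 134 CPM in shCtrl-CTRL, at 61.6, 66.4 and 67.2 CPM in shCtrl-OGDR, at 91.5, 100.1 and 89.7 CPM in shAnxa2-CTRL, and at 145, 138 and 145 CPM in shAnxa2-OGDR. No group overlapped another, with shCtrl-OGDR lowest and shAnxa2-OGDR highest. OGD/R lowered Bid in shCtrl by a log2 fold change of -1.0 (SE 0.0521, adjusted p = 5.34e-14). In shAnxa2, OGD/R raised it by 0.61 on the log2 scale (SE 0.0513, adjusted p = 8.33e-10). The difference of shAnxa2 from shCtrl was -0.47 without OGD/R (SE 0.0511, adjusted p = 3.07e-08) and 1.13 after it (SE 0.0523, adjusted p = 3.62e-15), and the latter was the largest of all differences of the 9 genes between the lines.

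Bcl2l11, the BH3-only protein that binds every survival member, was at 77.3, 72.2 and 72.5 CPM in shCtrl-CTRL, at 63.1, 59.6 and 61.7 CPM in shCtrl-OGDR, at 70.4, 75.8 and 73.1 CPM in shAnxa2-CTRL, and at 89.4, 90.5 and 92.6 CPM in shAnxa2-OGDR. The untreated lines overlapped, all libraries of shCtrl-OGDR lay below them, and all libraries of shAnxa2-OGDR lay above them. With OGD/R, Bcl2l11 fell by 0.27 in shCtrl (SE 0.0509, adjusted p = 6.79e-05). It rose by 0.31 in shAnxa2 (SE 0.0505, adjusted p = 1.26e-05). After OGD/R it was higher in shAnxa2 by 0.56 (SE 0.0509, adjusted p = 6.18e-10), while the untreated difference of -0.02 did not pass (adjusted p = 0.793).

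Bak1, an effector that sits in the mitochondrial outer membrane, was at 248, 265 and 267 CPM in shCtrl-CTRL, at 214, 219.7 and 234 CPM in shCtrl-OGDR, at 253, 235 and 265 CPM in shAnxa2-CTRL, and at 292, 285 and 288 CPM in shAnxa2-OGDR. The libraries of shCtrl-OGDR lay below and those of shAnxa2-OGDR above the untreated libraries, which overlapped. Bak1 fell with OGD/R in shCtrl by 0.23 on the log2 scale (SE 0.0516, adjusted p = 0.000525). It rose in shAnxa2 by 0.20 (SE 0.0516, adjusted p = 0.00208). The lines differed by 0.37 after OGD/R (SE 0.0517, adjusted p = 7.31e-07) and by -0.05 without it (adjusted p = 0.41), where the test was not passed.

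Bad, a BH3-only protein held inactive by survival kinases, was at 38.5, 36.1 and 36.9 CPM in shCtrl-CTRL, at 34.0, 35.04 and 33.2 CPM in shCtrl-OGDR, at 33.4, 33.5 and 37.3 CPM in shAnxa2-CTRL, and at 40.5, 38.6 and 42.2 CPM in shAnxa2-OGDR. The shAnxa2-OGDR libraries were the highest, and the other groups lay close together. In shCtrl the change with OGD/R was -0.12 (SE 0.0641, adjusted p = 0.0972), which did not pass although the libraries of the groups did not overlap. In shAnxa2, Bad rose by 0.21 (SE 0.0648, adjusted p = 0.00713). It was higher in shAnxa2 than in shCtrl after OGD/R by 0.24 (SE 0.0646, adjusted p = 0.00184), and the untreated difference of -0.09 did not pass (adjusted p = 0.218).

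Casp8, the initiator caspase, was at 77.0, 80.3 and 86.3 CPM in shCtrl-CTRL, at 77.4, 69.2 and 73.9 CPM in shCtrl-OGDR, at 76.5, 70.5 and 67.6 CPM in shAnxa2-CTRL, and at 74.8, 72.1 and 69.9 CPM in shAnxa2-OGDR. All 4 groups overlapped apart from shCtrl-CTRL, whose libraries lay above those of shAnxa2-CTRL and of shAnxa2-OGDR. Casp8 fell with OGD/R in shCtrl by 0.14 on the log2 scale (SE 0.0583, adjusted p = 0.0339), but the call was lost without shCtrl-CTRL replicate 2 (adjusted p = 0.0636) or 3 (0.233), without shCtrl-OGDR replicate 2 (0.181) or 3 (0.0607), without shAnxa2-OGDR replicate 2 (0.0511), and with upper quartile scaling (0.0797). Without OGD/R it was lower in shAnxa2 by a log2 fold change of -0.18 (SE 0.0587, adjusted p = 0.00908), a call lost without shCtrl-CTRL replicate 3 (adjusted p = 0.0843) or shAnxa2-CTRL replicate 3 (0.0596). The changes of 0.02 with OGD/R in shAnxa2 (adjusted p = 0.841) and of -0.02 for the lines compared after OGD/R (adjusted p = 0.733) did not pass.

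Summed by role over the members alone, the survival genes and the effector and BH3-only genes changed places between groups. The survival genes Mcl1, Bcl2l1, Bcl2 and Bcl2a1b together were at 121 ± 1.78 CPM per kb in shCtrl-CTRL, 175 ± 8.92 in shCtrl-OGDR, 183 ± 7.17 in shAnxa2-CTRL and 131 ± 4.34 in shAnxa2-OGDR (SD, n = 3). The effector and BH3-only genes Bak1, Bid, Bad and Bcl2l11 were at 168 ± 4.39, 132 ± 4.79, 153 ± 5.29 and 187 ± 3.14 CPM per kb in the same order. The second sum was the larger in shCtrl-CTRL and shAnxa2-OGDR, and the first in shCtrl-OGDR and shAnxa2-CTRL. The sums are descriptions of mRNA, given without a test, and Mcl1 and Bak1 make up most of them. Their order depends on which genes are summed. The effector Bax, not a member, was at 49.0 CPM per kb in shCtrl-OGDR and 37.8 in shAnxa2-CTRL. With Bax alone added, the second sum would be the larger in these groups too. The survival gene Bcl2l2, also not a member, was at 10.7 and 10.1 CPM per kb there and would add to the first. The ratio of Mcl1 to Bid in CPM was 2.30 ± 0.125 in shCtrl-CTRL, 7.51 ± 0.122 in shCtrl-OGDR, 5.24 ± 0.237 in shAnxa2-CTRL and 2.33 ± 0.195 in shAnxa2-OGDR. Mcl1 and Bid moved in opposite directions with OGD/R in both lines, so the wide range of this ratio follows from the choice of pair. The ratio of Mcl1 to Bcl2l1 ran from 2.40 in shCtrl-CTRL to 5.16 in shCtrl-OGDR.

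**Figure D2:**
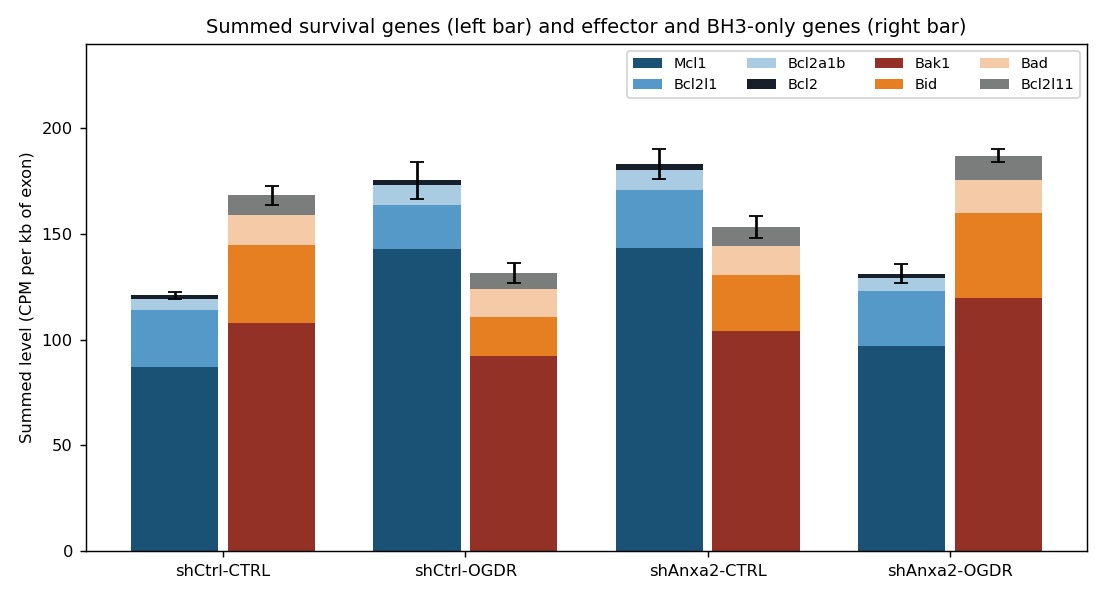
Summed levels (vertical axis from 0, CPM per kb of exon) of the survival genes (left bar of each pair) and of the effector and BH3-only genes (right bar) in the 4 groups, stacked by gene as group means, with 1 SD of the sum over 3 libraries as the error bar. The right bar is taller in shCtrl-CTRL (168 against 121) and shAnxa2-OGDR (187 against 131), and the left bar in shCtrl-OGDR (175 against 132) and shAnxa2-CTRL (183 against 153). Only the members are summed, without Bax and other relatives.

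The counts of calls are to be read against the background of all 11626 genes tested, where a call is an adjusted p under 0.05 in edgeR's quasi-likelihood test. With OGD/R in shCtrl, 3 of the 9 genes were higher and 5 were lower, where 32.4% of all genes were called higher and 31.0% lower. At least 1.5-fold changes were called for 3 members (Mcl1, Bcl2a1b and Bid) and for 20.1% of all genes. With OGD/R in shAnxa2, 4 members were higher and 3 lower against 28.2% and 26.8% of all genes, and 2 reached 1.5-fold (Bcl2a1b and Bid) against 12.1%. The median absolute log2 fold change was 0.39 for the members and 0.30 for all genes in shCtrl, and 0.31 and 0.24 in shAnxa2.

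Between the untreated lines, 3 members were higher in shAnxa2 and 2 lower, against 29.5% and 29.7% of all genes, and 3 reached 1.5-fold (Mcl1, Bcl2a1b and Bcl2) against 15.6%. After OGD/R, 5 members were higher in shAnxa2 (Bid, Bcl2l11, Bak1, Bcl2l1 and Bad) and 2 lower (Mcl1 and Bcl2a1b), against 33.8% and 34.2% of all genes. Of these, 2 reached 1.5-fold (Bid and Bcl2a1b) against 26.3%. The median absolute log2 fold change was 0.18 for the members and 0.26 for all genes between the untreated lines, and 0.37 and 0.35 after OGD/R. The comparisons share libraries: OGD/R in shCtrl and the untreated lines share shCtrl-CTRL as the reference, so their values stand side by side and are not independent.

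**Figure D3:**
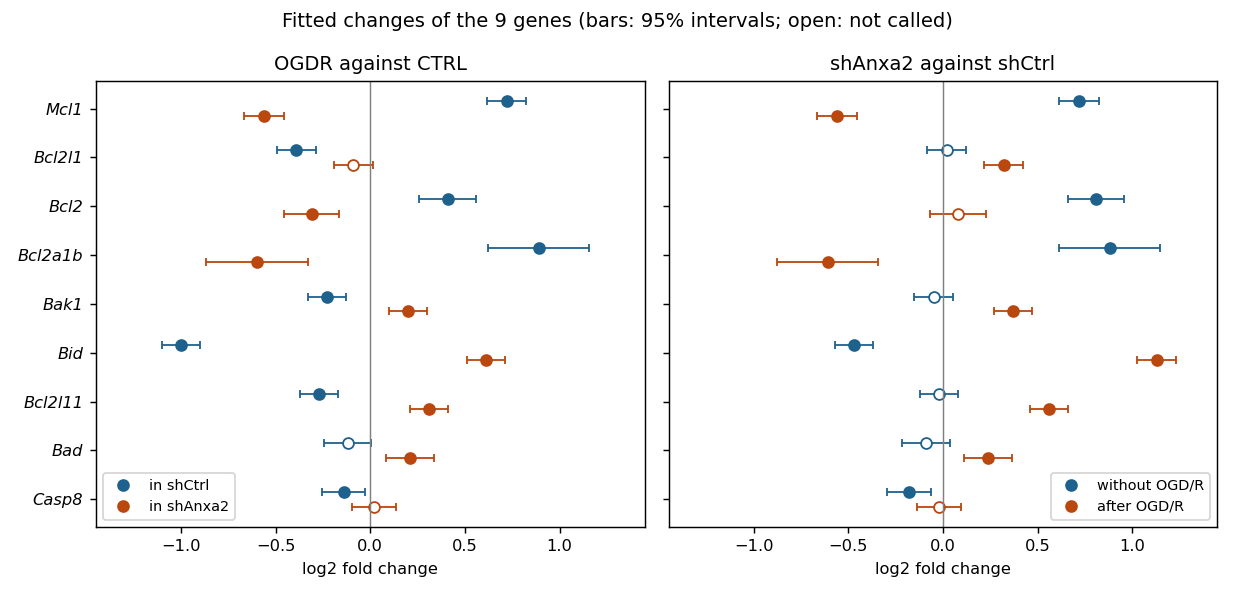
Fitted log2 fold changes (horizontal axes) of the 9 genes (vertical axis) with OGD/R in each line (left panel) and between the lines in each condition (right panel). Bars are 95% intervals of the fit and open circles did not pass the test. The left panel shows Mcl1 at 0.72 in shCtrl and -0.56 in shAnxa2, with Bid at -1.0 and 0.61, and the right panel shows Bid at -0.47 without and 1.13 after OGD/R.

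The OGD/R change differed between the lines for 8 of the 9 genes. The interaction, the log2 change in shAnxa2 less that in shCtrl, was called higher than 0 for 5 members and lower for 3, where 34.9% and 35.1% of all genes were called, and 4 members reached 1.5-fold against 41.8%. All of the negative ones were survival genes, namely Bcl2a1b at -1.49 (SE 0.193, adjusted p = 2.37e-07), Mcl1 at -1.28 (SE 0.0755, adjusted p = 2.34e-13) and Bcl2 at -0.72 (SE 0.107, adjusted p = 1.92e-06). The positive ones were the 4 effector and BH3-only genes and Bcl2l1. Bid had the largest at 1.60 (SE 0.0731, adjusted p = 2.07e-15), followed by Bcl2l11 at 0.58 (SE 0.0717, adjusted p = 1.12e-07). This split by role describes the members only. Of the tested BH3-only genes outside them, Bik (-2.72), Bbc3 (-1.74) and Bmf (-1.02) were called lower, and Pmaip1 (0.01) was not called. For Casp8 the interaction of 0.16 did not pass (SE 0.0834, adjusted p = 0.0899), but it did without shCtrl-CTRL replicate 1 (0.20, adjusted p = 0.0424) or shAnxa2-CTRL replicate 1 (0.21, adjusted p = 0.033).

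Bcl2a1b belongs to a set of near-identical mouse copies on chromosome 9 whose reads can be split or shared by a counter. Of the 516 coding bases, 12 positions differ among Bcl2a1a, Bcl2a1b and Bcl2a1d, and the coding sequences of Bcl2a1b and Bcl2a1d are 98.8% identical. The first 60 coding bases hold 6 of those positions and are shown to let the copies be compared, with the differing positions in capitals (GENCODE M21, GRCm38).
Bcl2a1a (chr9:88957051-88957110, plus strand): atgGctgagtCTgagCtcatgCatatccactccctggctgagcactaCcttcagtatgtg
Bcl2a1b (chr9:89199360-89199419, plus strand): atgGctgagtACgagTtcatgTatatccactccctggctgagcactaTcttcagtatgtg
Bcl2a1d (chr9:88731660-88731719, minus strand): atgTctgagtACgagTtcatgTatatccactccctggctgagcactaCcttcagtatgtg
Of all windows of the Bcl2a1b transcript, 57.6% of those of 50 bases, 31.1% of those of 100 bases and 14.2% of those of 150 bases occur unchanged in another copy, so the count of Bcl2a1b alone is uncertain. Bcl2a1d was the only other copy that passed the filter on low counts, and the ratio of Bcl2a1b to Bcl2a1d in CPM was 1.22 ± 0.247 in shCtrl-CTRL, 1.27 ± 0.171 in shCtrl-OGDR, 1.35 ± 0.0907 in shAnxa2-CTRL and 1.39 ± 0.322 in shAnxa2-OGDR. With the counts of all copies summed, the log2 fold changes of the Bcl2a1 genes were 0.87 and -0.61 with OGD/R in shCtrl and shAnxa2, and 0.82 and -0.66 between the lines without and after OGD/R, all of them called (adjusted p from 2.23e-07 to 5.79e-05).

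The promoters of the 3 members with the largest interactions, Bid, Bcl2a1b and Mcl1, are given as the 250 bases before the RefSeq start site (GRCm38.p6). They were searched on both strands for the NF-κB consensus, the hypoxia response core ACGTG, the FOXO core TAAACA, the cAMP response site TGACG, the AP-1 site TGANTCA, the E-box CACGTG, the CCAAT box, the TATA box TATAAA and the GC box GGGCGG. The E-box contains the hypoxia core, and capitals mark every match.
Mcl1 (chr3:95658471-95658720, plus strand): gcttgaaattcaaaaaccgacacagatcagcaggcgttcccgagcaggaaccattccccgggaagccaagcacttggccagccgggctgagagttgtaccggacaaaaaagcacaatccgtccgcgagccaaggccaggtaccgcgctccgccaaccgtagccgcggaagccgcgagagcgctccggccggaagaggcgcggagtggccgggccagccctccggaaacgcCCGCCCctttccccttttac
Bcl2a1b (chr9:89199023-89199272, plus strand): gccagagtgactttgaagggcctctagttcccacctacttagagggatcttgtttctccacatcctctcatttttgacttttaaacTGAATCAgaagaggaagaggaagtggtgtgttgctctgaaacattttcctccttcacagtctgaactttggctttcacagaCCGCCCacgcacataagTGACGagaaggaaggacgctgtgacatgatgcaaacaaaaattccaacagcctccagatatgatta
Bid (chr6:120916825-120917074, minus strand): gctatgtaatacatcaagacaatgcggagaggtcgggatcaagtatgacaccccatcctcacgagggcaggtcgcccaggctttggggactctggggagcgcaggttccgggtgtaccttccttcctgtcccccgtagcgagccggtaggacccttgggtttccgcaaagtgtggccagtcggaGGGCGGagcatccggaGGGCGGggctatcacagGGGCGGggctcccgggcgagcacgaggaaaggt
Mcl1 held 1 GC box, from 20 to 15 bases before the start. Bid held 3 GC boxes, the nearest from 33 to 28 bases before the start. Bcl2a1b held an AP-1 match, a cAMP response site and a GC box, and its promoter was 44.8% G or C against 64.4% for Mcl1 and 63.6% for Bid. Of 32851 mouse promoters of the same length, 32.7% hold the GC box, 6.75% the AP-1 site and 17.8% the cAMP site, and 7.25%, 16.6%, 12%, 6.02%, 33.8% and 12.4% the NF-κB consensus, the hypoxia core, the FOXO core, the E-box, the CCAAT box and the TATA box. A match says only that the letters are there.

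Of 63 other genes of the cell death pathways, 51 were tested. With OGD/R, 22 were higher and 15 lower in shCtrl, and 16 were higher and 18 lower in shAnxa2. Between the lines, 19 were higher and 14 lower without OGD/R, and 15 were higher and 19 lower after it. The interaction was called higher for 18 and lower for 23. These counts are to be read against the shares of all genes called higher and lower. With OGD/R the shares were 32.4% and 31.0% in shCtrl, and 28.2% and 26.8% in shAnxa2. Between the lines they were 29.5% and 29.7% without OGD/R, and 33.8% and 34.2% after it. For the interaction they were 34.9% and 35.1%.

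Other BCL2 relatives included several genes that were higher with OGD/R in shCtrl and lower with it in shAnxa2. Bcl2l2 (Bcl-w), a survival protein, rose by 0.89 in shCtrl (adjusted p = 7.18e-11) and fell by 0.55 in shAnxa2 (adjusted p = 5.8e-07), and Bcl2a1d rose by 0.81 (adjusted p = 9.82e-05) and fell by 0.62 (adjusted p = 0.00263). The BH3-only genes of the list did not follow Bid, Bcl2l11 and Bad. Of the 4 tested, 3 rose in shCtrl and fell in shAnxa2. Taken separately, 32.4% of all genes were called higher in shCtrl and 26.8% lower in shAnxa2. The share of genes with both calls was not counted, and the interaction was called lower for 35.1% of all genes. Bbc3 (PUMA), a p53 target, rose by 0.96 in shCtrl (adjusted p = 1.06e-09) and fell by 0.77 in shAnxa2 (adjusted p = 4.99e-07), and its level was 18.6 ± 1.66 CPM in shCtrl-CTRL, 36.5 ± 3.14 in shCtrl-OGDR, 20.8 ± 2.08 in shAnxa2-CTRL and 12.2 ± 1.04 in shAnxa2-OGDR. Bmf, a BH3-only protein tied to the cytoskeleton, rose by 0.57 (adjusted p = 6.17e-07) and fell by 0.44 (adjusted p = 6.17e-05). Bik rose by 1.59 (adjusted p = 2.82e-09) and fell by 1.14 (adjusted p = 8.8e-08). Pmaip1 (Noxa) did not pass in any comparison, with log2 fold changes from -0.10 to 0.11. It passed with OGD/R in shCtrl without shCtrl-OGDR replicate 3 (-0.18, adjusted p = 0.0482), between the untreated lines without shAnxa2-CTRL replicate 3 (0.18, adjusted p = 0.0436), and between the lines after OGD/R without shCtrl-OGDR replicate 3 (0.18, adjusted p = 0.0428).

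Bax, the second effector, differed in its pattern from Bak1. It was at 77.3 ± 3.42 CPM in shCtrl-CTRL, 77.2 ± 3.16 in shCtrl-OGDR, 59.6 ± 1.60 in shAnxa2-CTRL and 77.3 ± 2.02 in shAnxa2-OGDR (SD, n = 3), so the untreated shAnxa2 libraries alone were low. It rose with OGD/R in shAnxa2 by 0.37 (adjusted p = 2.19e-06) and its log2 fold change between the lines was -0.37 without OGD/R (adjusted p = 1.5e-06). The change with OGD/R in shCtrl was 0.00 (adjusted p = 0.997). Set against Bax, Bcl2 gave a ratio of 0.189 ± 0.0166, 0.251 ± 0.014, 0.428 ± 0.00907 and 0.266 ± 0.0147 in shCtrl-CTRL, shCtrl-OGDR, shAnxa2-CTRL and shAnxa2-OGDR.

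Bnip3, a hypoxia-inducible mitophagy receptor with a BH3-like segment, had the lowest adjusted p of the listed genes between the lines after OGD/R, and Bbc3 the next. Its level was 67.1 ± 8.76 CPM in shCtrl-CTRL, 216 ± 33.5 in shCtrl-OGDR, 182 ± 10.1 in shAnxa2-CTRL and 39.7 ± 2.62 in shAnxa2-OGDR. It was thus high in the untreated shAnxa2 libraries and low in those labelled OGDR. After OGD/R, shAnxa2 differed from shCtrl on the log2 scale by -2.44 for Bnip3 (adjusted p = 1.51e-16) and -1.59 for Bbc3 (adjusted p = 3.29e-13). High levels in shCtrl-OGDR and shAnxa2-CTRL were not particular to Bnip3. Mcl1, Bcl2a1b, Bcl2l2, Bnip3l, Cflar, Birc2 and Birc3 had the same pattern. Bbc3 was high in shCtrl-OGDR alone, and Bax was low in shAnxa2-CTRL alone. Birc3 was at 28.7 CPM in shCtrl-CTRL, 66.4 in shCtrl-OGDR, 59.2 in shAnxa2-CTRL and 35.7 in shAnxa2-OGDR. Whether this pattern bears on the OGD/R labels of the shAnxa2 libraries was not tested.

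Among the other caspases, Casp9, the initiator of the apoptosome, rose in shCtrl by 0.28 (adjusted p = 4.43e-05). Casp4, the inflammatory caspase-11 of mice, rose in shCtrl by 1.20 (adjusted p = 8.06e-11) and fell in shAnxa2 by 0.79 (adjusted p = 9.78e-08). Casp6 rose by 0.36 (adjusted p = 0.00387) and fell by 0.39 (adjusted p = 0.00345).

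Around Casp8, the receptor Fas was low in all groups, at 1.68 ± 0.54 CPM in shCtrl-CTRL, 6.35 ± 0.885 in shCtrl-OGDR, 6.72 ± 1.36 in shAnxa2-CTRL and 4.07 ± 0.702 in shAnxa2-OGDR. It rose with OGD/R in shCtrl by 1.93 (adjusted p = 1.45e-08) and fell in shAnxa2 by 0.72 (adjusted p = 0.00187). Cflar (c-FLIP), which blocks Casp8 at the receptor, rose by 0.73 (adjusted p = 2e-12) and fell by 0.39 (adjusted p = 2.27e-07). Of the 8 tested genes of the death receptor pathway, 4 were higher and 3 lower with OGD/R in shCtrl, and 3 were higher and 3 lower in shAnxa2. Of all genes tested, 32.4% were called higher and 31.0% lower in shCtrl, and 28.2% and 26.8% in shAnxa2. The receptor Tnfrsf1a fell by 0.28 in shCtrl (adjusted p = 4.31e-05) and rose by 0.30 in shAnxa2 (adjusted p = 2.69e-05), and the adaptor Fadd, which recruits Casp8, fell by 0.29 (adjusted p = 0.00137) and rose by 0.30 (adjusted p = 0.00142).

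Of the 5 inhibitor of apoptosis genes, 2 were higher and 3 lower with OGD/R in shCtrl, and 2 were higher and 2 lower in shAnxa2. The shares of all genes called higher and lower were 32.4% and 31.0% in shCtrl, and 28.2% and 26.8% in shAnxa2. Birc2 and Birc3, ubiquitin ligases of the TNF receptor complex, rose in shCtrl by 0.49 (adjusted p = 6.06e-06) and 1.21 (adjusted p = 4.95e-14) and fell in shAnxa2 by 0.49 (adjusted p = 1.42e-05) and 0.73 (adjusted p = 1.19e-09). Birc5 (survivin), a protein of cell division, fell by 0.32 in shCtrl (adjusted p = 1.24e-05) and rose by 0.35 in shAnxa2 (adjusted p = 5.54e-06), and Birc6 fell by 0.25 (adjusted p = 0.000602) and rose by 0.22 (adjusted p = 0.00273). Trp53, the transcription factor p53, had the same directions as Birc5, falling by 0.40 in shCtrl (adjusted p = 4.04e-07) and rising by 0.55 in shAnxa2 (adjusted p = 5.84e-09). Mlkl, the pore of necroptosis, fell by 0.45 (adjusted p = 1.59e-07) and rose by 0.22 (adjusted p = 0.00128). Endog, a mitochondrial nuclease, fell by 0.55 (adjusted p = 3.81e-05) and rose by 0.56 (adjusted p = 2.74e-05).

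**Figure D4:**
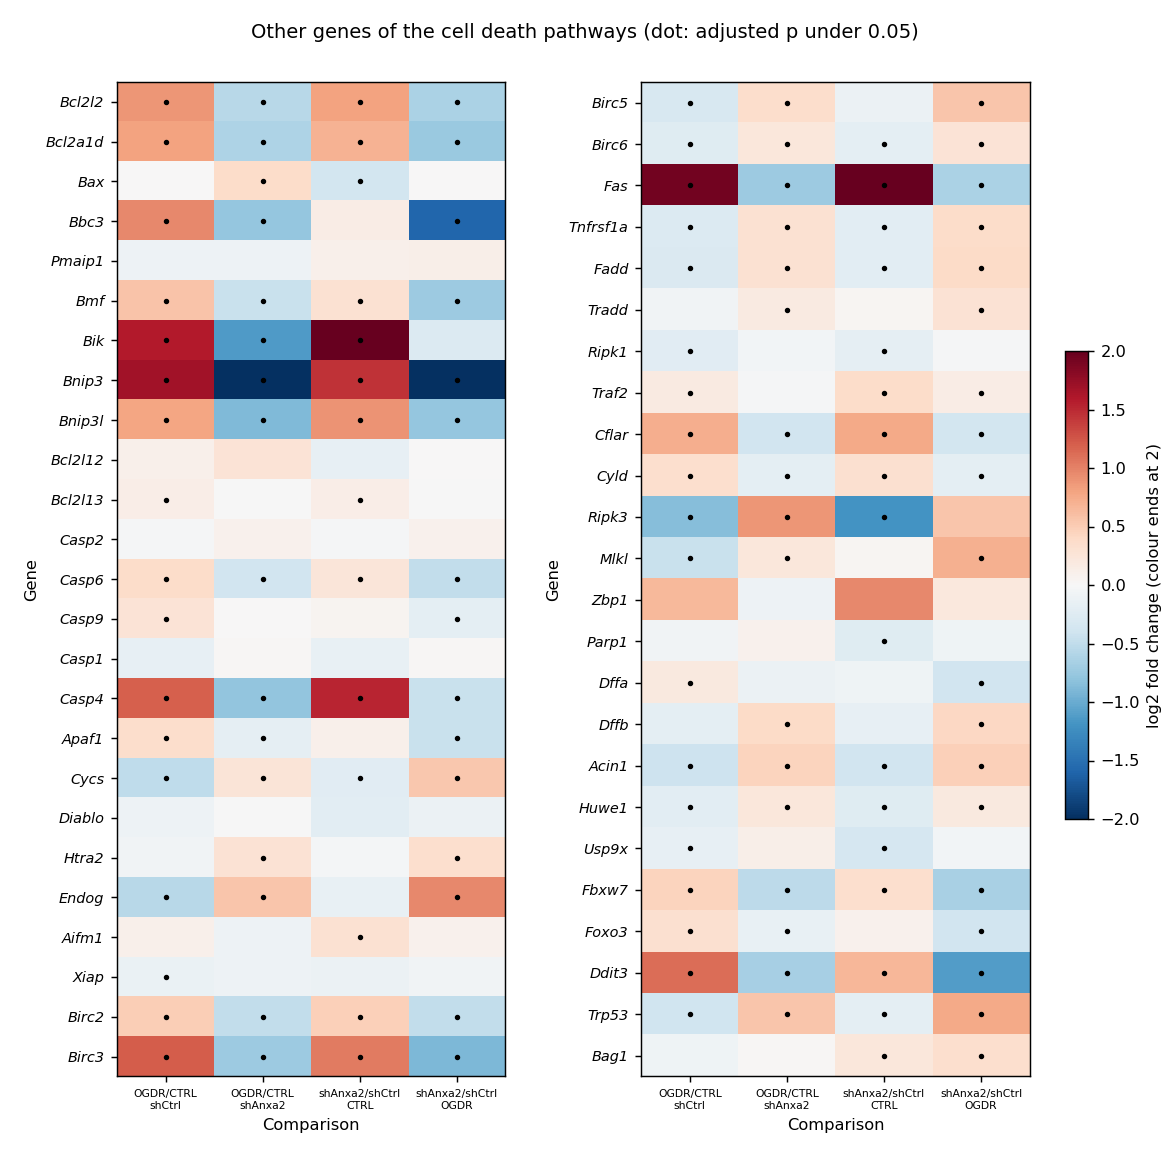
Log2 fold changes of 49 of the 51 tested genes of the cell death pathways (rows) in the 4 comparisons (columns), with the colour scale ending at 2 in either direction and a dot where the adjusted p was under 0.05. Bnip3, Birc3 and Casp4 are red for OGD/R in shCtrl and for the untreated lines and blue in the other columns, and Trp53 shows the reverse.

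By the correlation of log2(CPM + 0.1) over the 12 libraries, the genes most like Bid among 10741 genes of at least 1 CPM were Ina (r = 0.994), Nop2 (r = 0.992) and Clptm1l (r = 0.991). Those most like Bcl2a1b were Dennd6a (r = 0.982), Mroh2a (r = 0.981) and Ccny (r = 0.975). The 12 points fall in 4 groups of 3 libraries, so these values mostly rank agreement over 4 group means.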

How the data were processed

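RNA-seq counts of 12 BV2 libraries were used. The authors deposited unnormalized counts of reads per gene for 21834 genes. Their processing notes name HISAT2 2.0.4 and mm39, while the RNA-seq methods of the paper, written for hippocampi, name other tools, and the counter and the strand setting for these libraries are not given in the sources used here. The table also holds 12 columns of normalized values, which were not used. Groups were taken from the sample titles. The methods give 3 biological replicates, and where libraries are not from separate cultures the p-values measure only the spread between these libraries, which may be technical. Total counts were 19521877 to 27288843, and no 2 libraries of a group agreed within counting error.

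Genes with at least 0.5 CPM in at least 3 libraries (11626) were fitted in edgeR 4.0.16 (R 4.3.3) with TMM scaling and 1 quasi-likelihood model over the 12 libraries, with Benjamini-Hochberg adjustment over all of them. The steps were tested on simulated counts. Alternatives used limma 3.58.1, DESeq2 1.42.0 and other filters, scalings, samples and a replicate block, and the sum of Bcl2a1b with Bcl2a1d and the role sums without normalization factors were chosen after seeing the data. CPM are counts over TMM-scaled library totals. Levels per kb use exon unions of GENCODE M21. Promoters came from RefSeq (GRCm38.p6). Drawing and summaries used Python 3.11.15. The deposited coordinates are of another build than these references and were not mixed with them. Named genes are the 9 members, genes of the pathway lists, Anxa2, and for the members with the most positive and most negative interaction the 3 genes most correlated with each. The members and lists were chosen with earlier results of these data known, and the listed genes given with values were picked after their values were seen. Values of 2 listed genes are not reported here.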

Additional observations from a re-analysis of the deposited data

Results flagged for a closer look

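The OGD/R change differed between the shAnxa2 and shCtrl lines by the interaction term of edgeR's model for 8 of the 9 genes. By that term, 34.9% of all genes tested were called higher and 35.1% lower, so such a call was common. On the log2 scale, the change in shAnxa2 less that in shCtrl was -1.49 for Bcl2a1b, -1.28 for Mcl1, -0.72 for Bcl2, 0.30 for Bcl2l1, 0.34 for Bad (adjusted p = 0.00209), 0.43 for Bak1 (adjusted p = 1.48e-05), 0.58 for Bcl2l11 and 1.60 for Bid. Bcl2l1 had an adjusted p of 0.00108.

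Of the other cell death genes given with values, the interaction was below 0 for Bnip3 (-3.87), Bik (-2.72), Fas (-2.64), Casp4 (-1.99), Birc3 (-1.94), Bbc3 (-1.74), Bcl2l2 (-1.44), Bcl2a1d (-1.44), Cflar (-1.12), Bmf (-1.02), Birc2 (-0.98), Casp6 (-0.75) and Casp9 (-0.27). It was above 0 for Endog (1.11), Trp53 (0.95), Mlkl (0.67), Birc5 (0.67), Fadd (0.59), Tnfrsf1a (0.57), Birc6 (0.47) and Bax (0.37). Each of these passed the threshold (adjusted p = 0.0022 or less), and Pmaip1, at 0.01, did not (adjusted p = 0.954). By the same interaction, 34.9% and 35.1% of all genes tested were called higher and lower.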

How the results depend on the processing

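Of 901 recomputed fold changes of the 9 genes, 889 kept their direction and side of the threshold, 8 lost and 4 gained the call, and none reversed. For the other named genes, 2163 of 2178 were kept, 10 lost and 5 gained the call, and 0 reversed. Of 604 counts of calls, 595 stayed within 1.5 times. Requiring a 1.5-fold change moved the members called lower with OGD/R in shCtrl to 1, those higher and lower with OGD/R in shAnxa2 to 1 and 1, those lower in untreated shAnxa2 to 0, those higher and lower in shAnxa2 after OGD/R to 1 and 1, and those with a positive interaction to 1. Leaving out 1 library at a time gave 1 to 2 members lower in untreated shAnxa2, with 1 where shCtrl-CTRL replicate 3 or shAnxa2-CTRL replicate 3 was left out. The Casp8 calls were the least stable among the 9 genes, and Casp6, called in untreated shAnxa2 at 0.24 (adjusted p = 0.045), was not called with voom (0.24, adjusted p = 0.0533). The causes were not tested.

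The replicate numbers showed no clear pairing of the libraries. Same-numbered libraries of different groups deviated with correlations of -0.051 to 0.135 (median 0.002) over 18 pairs and others of -0.099 to 0.082. The highest was between replicates 3 of shAnxa2-CTRL and shAnxa2-OGDR, and with 3 libraries per group a weak pairing could be missed. With the replicate number as a block, all genes called higher and lower with OGD/R numbered 3754 and 3601 in shCtrl in place of 3764 and 3608, no member changed its call, and Casp6 without OGD/R lost it (adjusted p = 0.0543). Not every library correlated best with its own number. The low counts of Bcl2a1b limit its precision.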
